A study of Mus musculus with 9 samples.

Results

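Collagens, laminins and their partner proteins form the extracellular matrix, and their messenger RNAs were examined in embryonic mouse cortex of 3 genotypes. The genes were taken by symbol: every numbered collagen chain, every laminin alpha, beta or gamma chain, and 12 named matrix genes (*Fn1*, *Sparc*, *Dcn*, *Lum*, *Nid1*, *Nid2*, *Hspg2*, *Fbn1*, *Fbn2*, *Mgp*, *Bgn* and *Postn*). Of 67 such protein-coding genes in the annotation, 49 were among the 14670 genes of the expression table, whose lowest mean over the libraries was 0.54 CPM. The 18 genes not in the table included *Lum* and *Mgp* and are not described further. CPM is a gene's count of reads scaled to a common library size.

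RNA of cerebral cortex at embryonic day (E) 16.5 was sequenced in 9 libraries, 3 of each genotype. *Fzd3* and *Celsr3* encode a Frizzled receptor and a large cadherin of the planar cell polarity pathway, and both mutants (*Fzd3* -/- and *Celsr3* -/-) carried the mutation in the whole animal rather than in a chosen cell type. The mice were of a mixed C57Bl/6 and CD1 background. Labels give the controls as +/+, whereas the methods allow heterozygous or wild-type littermates; labels name Trizol and the methods an RNeasy kit. The labels number the libraries 1, 2 and 3 within a genotype, except that the last *Celsr3* mutant is number 4. The methods count 3 samples of each genotype and give at least 3 animals for animal experiments in general, without saying of these libraries that each was a separate embryo, so the p-values below measure the spread between libraries. Depth was estimated from the smallest step between values, taken as 1 read, and ran from 39857305 reads in control library 3 to 69600589 in *Celsr3* mutant library 4. Just 26 to 70 values per library lie within 20 steps of 0, so the step was not taken as proof of whole reads. On this estimate 3 reads corresponded to 0.0427 to 0.0752 CPM, a limit of counting error only.

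The mutated genes were read first. *Celsr3* was at 196, 243 and 214 CPM in controls, 253, 213 and 255 CPM in *Fzd3* mutants and 122, 139 and 118 CPM in *Celsr3* mutants, so its own mutants lay below every other library. *Fzd3* was at 58, 67.7 and 46.9 CPM in controls against 46.5, 39.8 and 59.6 CPM in *Fzd3* mutants, and these ranges overlapped. The *Fzd3* allele removes exon 3, and CPM of the whole gene does not check that label.

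Matrix genes fall into types by where their proteins are laid down. Fibroblasts of the meninges, the sheets that cover the cortex, secrete fibrillar collagens such as types I and III with decorin and periostin. Basement membranes, the thin sheets beneath the pia and around each vessel, are built of laminins, type IV collagen, nidogens and perlecan, and the end feet of radial glia attach to the pial one. The spaces between neural cells hold little fibrillar collagen and are filled by hyaluronan, chondroitin sulphate proteoglycans and tenascins. By textbook role, 16 of the 49 genes were placed with fibroblast matrix, 18 with basement membrane, and 15 with the remaining collagens, which include cartilage types, transmembrane chains and chains of unsettled role. None of the 49 is a classical gene of the neural matrix, which was read from a separate list of other matrix genes.

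Levels of different genes were compared as CPM per kb of annotated exon, averaged over the 3 controls. *Sparc*, a secreted protein that binds collagen, was highest at 18.7 CPM per kb, followed by the type IV collagen chains *Col4a1* at 14 and *Col4a2* at 9.79 CPM per kb. Fibronectin (*Fn1*) followed at 9.33 CPM per kb, and its 3 control values reached into those of *Col4a2*. The laminin chains *Lamc1* and *Lamb1*, which are shared by most laminin trimers, had 6.98 and 5.62 CPM per kb. The chains of collagen types I and III were low in the order: *Col3a1* stood at 0.473 (rank 31), *Col1a1* at 0.373 (rank 35) and *Col1a2* at 0.25 CPM per kb (rank 40), and *Dcn* at 0.189 (rank 45). The fibrillar type V chains *Col5a2* (1.69, rank 20) and *Col5a1* (0.839, rank 26) stood higher. The level and rank of *Col1a1* rest mostly on control library 2, with 0.185, 0.816 and 0.118 CPM per kb in the controls. Rank 49 belonged to *Lama3*, a laminin chain of skin and other epithelia, at 0.0911 CPM per kb. With the longest transcript as the length, *Fn1* passed *Col4a2* (13.1 against 10 CPM per kb), *Col1a2* moved from rank 40 to rank 32, and *Sparc* and *Col4a1* kept ranks 1 and 2.

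**Figure D1:**
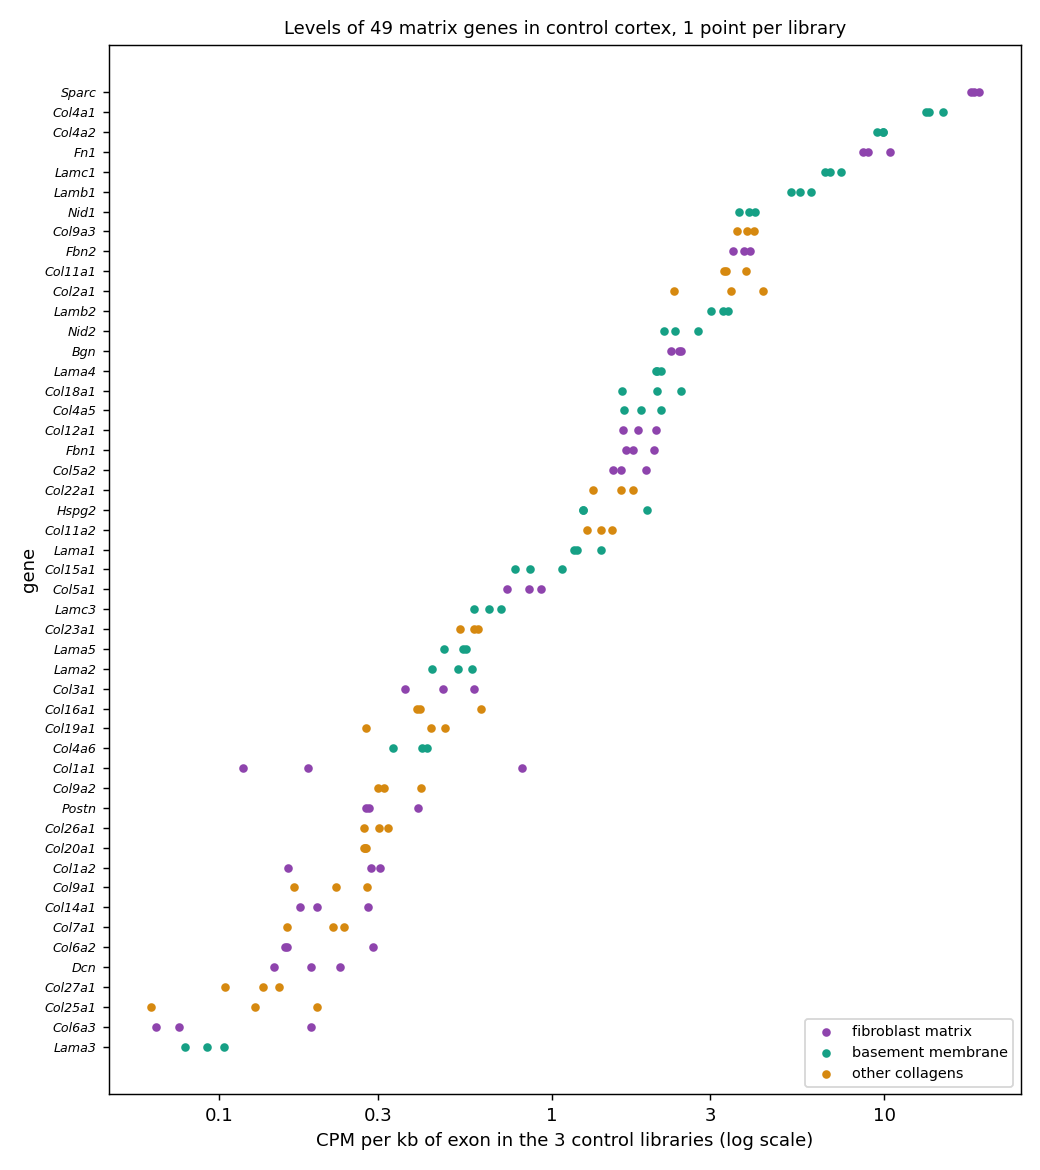
Levels of the 49 matrix genes in the 3 control libraries, in CPM per kb of annotated exon on a log axis, 1 point per library, coloured by the type of matrix. *Sparc* (18.7) and *Col4a1* (14) lead, and the points of *Col1a1* come from 1.21, 5.35 and 0.778 CPM.

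A single library stood apart in these genes, and it is described before any comparison. In *Celsr3* mutant library 4, 31 of the 49 genes had their highest value of the 9 libraries, whereas 11% of all genes in the table did. *Col3a1*, which makes type III collagen, measured 5.74, 4.63 and 3.56 CPM in controls, 4.78, 2.61 and 2.96 CPM in *Fzd3* mutants, and 6.86, 4.95 and 87.6 CPM in *Celsr3* mutants. *Col1a2*, a chain of type I collagen, measured 2, 3.78 and 3.54 CPM in controls, 3.27, 3.63 and 2.21 CPM in *Fzd3* mutants, and 3.49, 2.25 and 49.4 CPM in *Celsr3* mutants. In *Col1a2* the other 8 libraries overlapped between genotypes. In *Col3a1* the controls overlapped with both mutants, but all *Fzd3* mutants lay below *Celsr3* mutant libraries 1 and 2. Library 4 lay 12 and 11.7 times above the highest other library in *Col3a1* and *Col1a2* when 0.5 CPM was added to both values. Among genes that averaged 1 CPM or more no other gap of this kind was as wide in any library.

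The same library was high in further fibroblast genes, which were singled out after their values were seen. Decorin (*Dcn*), a proteoglycan that coats collagen fibrils, read 1.72, 2.07 and 13 CPM in the *Celsr3* mutants. Periostin (*Postn*), a matrix protein of fibroblasts and periosteum, read 2.82, 3.07 and 12.3 CPM, and the type VI collagen chain *Col6a2* read 1.84, 2.85 and 8.2 CPM. The other type I chain, *Col1a1*, read 1.39, 4.32 and 21.5 CPM. In each of these genes library 4 exceeded every other library of the series by more than 2 times. Counted over all genes that averaged 1 CPM or more, and with 0.5 CPM added to both values, 21 genes were more than 2 times above every other library here, 7 of them matrix genes. Control library 2 had 7 such genes, led by a small RNA family (*Metazoa_SRP*), *Fzd3* mutant library 3 had 1, and the other libraries had 0. None of those 8 was a matrix gene. The average for the 1 CPM limit was taken over all libraries, so the count of 21 depends partly on the limit itself. It includes genes that averaged below 1 CPM outside library 4, among them *Tbx18*, *Ptgds*, *Islr* and *Itga11*.

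Basement membrane genes were also high in library 4, by a smaller factor. Relative to the median of the other 8 libraries, with 0.5 CPM added, its median ratio was 1.79 over fibroblast genes (lowest 0.884, highest 16.9), 1.48 over basement membrane genes (lowest 1.18, highest 2.24) and 1.2 over the other collagens (lowest 0.538, highest 2.19). All 18 basement membrane genes lay above 1. Over all 14670 genes the median ratio was 0.999. Of the 16 fibroblast genes 14 lay above 1, and *Fbn2* and the fibril-associated collagen *Col12a1* (20.5, 37.8 and 26.3 CPM in *Celsr3* mutants) lay below. *Fn1*, with the highest CPM of the fibroblast genes, measured 105, 122 and 101 CPM in controls, 117, 98.8 and 97.4 CPM in *Fzd3* mutants, and 121, 93.8 and 117 CPM in *Celsr3* mutants, and the groups overlapped.

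**Figure D2:**
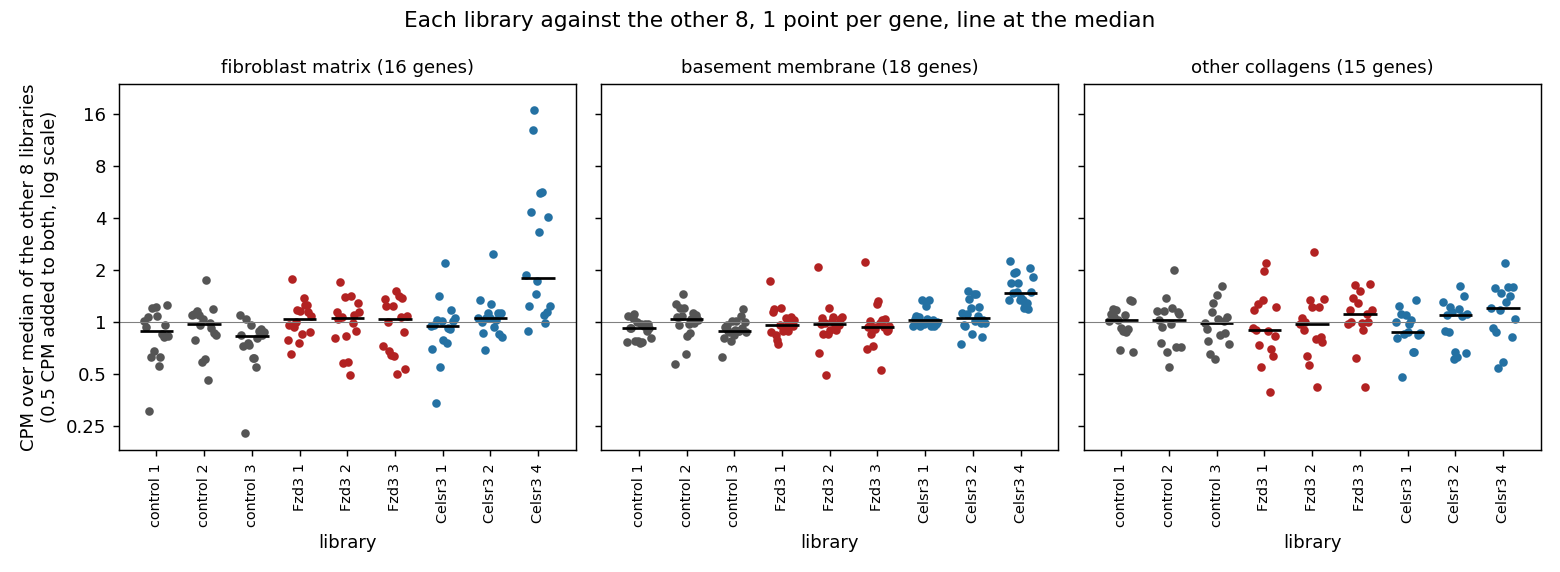
Each library set against the median of the other 8, on a log axis, 1 point per matrix gene with a line at the median, in panels for fibroblast matrix, basement membrane and other collagens. *Celsr3* mutant library 4 has medians of 1.79, 1.48 and 1.2, and its top points are *Col1a2* and *Col3a1*.

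Marker genes of cell types were read beside this library. Of 26 listed markers of meningeal fibroblasts, 10 were in the table, and *Foxc2*, *Aldh1a2*, *Slc6a13* and *Crabp2* were among the 16 that were not. Their summed level was 88.4, 88 and 100 CPM in controls, 111, 111 and 103 CPM in *Fzd3* mutants, and 105, 99.2 and 125 CPM in *Celsr3* mutants, mostly from *Igfbp2*, which many neural cells also express. *Igfbp2* itself was 62.2, 62.9 and 62.8 CPM in *Celsr3* mutants. The transcription factor *Tbx18* was high in library 4, with 0.852, 0.49 and 5.13 CPM in *Celsr3* mutants and no value above 1.07 CPM elsewhere. *Ptgds* (1.22, 1.12 and 3.82 CPM), *Islr* (1.15, 0.617 and 3.27 CPM) and *Foxc1* (1.72, 1.72 and 3.3 CPM), all picked after their values were seen, had the same shape. In all, 5 of the 10 markers were highest in library 4, beside 11% of all genes. These included *Ogn* (1.29, 1.11 and 4.2 CPM in *Celsr3* mutants). *Serping1* (6.4, 7.11 and 7.7 CPM), *Pdgfra* (19.3, 13 and 19.8 CPM), *Zic1* (10.4, 10.6 and 12.8 CPM) and *Slc6a20a* (0.367, 0.508 and 1.71 CPM) had higher values in another library of the series, as did *Igfbp2*. The part that these cells play in the values of library 4 was not tested, and in whole tissue more cells of a type cannot be told apart from more RNA per cell.

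Vessel markers were read in the same way, and 8 of 22 endothelial and 4 of 12 mural markers were highest in library 4, where 11% of all genes were. The summed level of 22 endothelial markers, of 23 listed, was 322, 322 and 335 CPM in controls, 424, 418 and 377 CPM in *Fzd3* mutants, and 339, 310 and 392 CPM in *Celsr3* mutants. Mural cell markers, 12 of 16 listed, summed to 117, 126 and 127 CPM, then 147, 142 and 126 CPM, then 131, 123 and 159 CPM, led by *Rgs5*. The peptidase *Anpep* (1.69, 1.54 and 5.65 CPM in *Celsr3* mutants), picked after its values were seen, was more than 2 times above every other library in library 4. The part of vessel cells in the values of library 4 was not tested. The smooth muscle markers *Acta2*, *Tagln*, *Myh11* and *Des* were not in the table. None of 12 markers of choroid plexus was in the table, *Ttr* included, and 12 of 16 markers of cartilage, bone, skin and muscle were not. Microglia and blood markers, 13 of 14 listed, summed to 1374, 1474 and 1568 CPM in controls, 1768, 1873 and 1244 CPM in *Fzd3* mutants, and 1861, 1230 and 1956 CPM in *Celsr3* mutants, with the globin gene *Hba-a1* the most abundant, and 4 of the 13 were highest in library 4. The macrophage receptor *Mrc1*, picked after its values were seen, read 2.22, 1.94 and 10.9 CPM in *Celsr3* mutants and at most 2.92 CPM elsewhere. The part of these cells in the matrix values of library 4 was not tested.

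Promoters of 4 of these genes are shown because the genes were high together in library 4, in pairs: *Col1a2* and *Col3a1*, and the type IV chains *Col4a1* and *Col4a2*. Each window is 300 bases of the gene's own strand from RefSeq, build GRCm38.p6, from 250 bases before the start of the gene to 50 after it. Capitals mark 3 motifs searched on both strands: TATAAA, the CCAAT box and the GC box GGGCGG. *Col1a2* lies at chr6:4505368-4505667 on the plus strand, *Col3a1* at chr1:45311288-45311587 on the plus strand, *Col4a1* at chr8:11312777-11313076 on the minus strand and *Col4a2* at chr8:11312555-11312854 on the plus strand.
Col1a2: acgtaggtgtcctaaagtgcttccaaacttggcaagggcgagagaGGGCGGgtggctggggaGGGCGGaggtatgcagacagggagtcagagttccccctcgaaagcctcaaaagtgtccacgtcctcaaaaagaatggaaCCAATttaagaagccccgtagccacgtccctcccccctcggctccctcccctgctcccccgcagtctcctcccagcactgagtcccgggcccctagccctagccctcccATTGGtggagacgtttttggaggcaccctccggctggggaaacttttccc
Col3a1: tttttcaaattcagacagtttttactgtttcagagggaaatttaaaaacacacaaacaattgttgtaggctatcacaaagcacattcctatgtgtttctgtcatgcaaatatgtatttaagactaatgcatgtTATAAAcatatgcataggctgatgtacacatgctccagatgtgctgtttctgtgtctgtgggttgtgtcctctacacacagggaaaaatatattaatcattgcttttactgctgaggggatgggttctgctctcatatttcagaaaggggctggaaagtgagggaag
Col4a1: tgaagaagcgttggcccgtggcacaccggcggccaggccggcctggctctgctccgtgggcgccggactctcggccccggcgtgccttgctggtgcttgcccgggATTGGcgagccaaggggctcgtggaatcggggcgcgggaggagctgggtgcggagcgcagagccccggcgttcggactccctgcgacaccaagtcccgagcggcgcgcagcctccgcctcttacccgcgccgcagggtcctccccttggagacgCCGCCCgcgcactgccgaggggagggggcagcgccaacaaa
Col4a2: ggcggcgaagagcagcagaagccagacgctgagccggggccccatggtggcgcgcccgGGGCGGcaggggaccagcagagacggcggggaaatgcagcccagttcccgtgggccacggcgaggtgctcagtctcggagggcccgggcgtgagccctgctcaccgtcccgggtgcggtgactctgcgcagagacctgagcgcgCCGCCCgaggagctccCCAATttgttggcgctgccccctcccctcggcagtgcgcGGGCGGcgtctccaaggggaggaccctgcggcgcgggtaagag

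The type IV pair is transcribed in opposite directions, and their windows share 78 bases. The annotated exons of *Col4a1* and *Col4a2* overlap by 22 bases, a small part of either gene. *Col1a2* holds 2 CCAAT and 2 GGGCGG matches and no TATAAA, whereas *Col3a1* holds 1 TATAAA and neither of the others. Of the 32851 promoter windows in the RefSeq table, 13.6% hold TATAAA, 37.4% CCAAT and 35.7% GGGCGG. Among the 36 windows of 32 matrix genes the shares are 8.33%, 36.1% and 66.7%. A match is a run of letters and not evidence of binding.

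*Fzd3* mutants were compared with controls to ask which matrix genes changed with the receptor. Differences are log2 fold changes of CPM + 0.5 with a standard error (SE), tested with limma in a single fit of all libraries and called at a Benjamini-Hochberg adjusted p of 0.05 over all genes. Of the 49 matrix genes, 2 were lower and 7 were higher, and 40 did not pass. Among all genes measured, 14.8% of genes were lower and 15% higher. Their median log2 fold change was 0.03, against 0.00 over all genes. The 2 lower genes were both in the group of other collagens, and the higher ones were spread over the 3 types. Without *Fzd3* mutant library 1 the higher count was 4, while the calls over all genes in both directions went from 29.8% to 20.2%.

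*Col2a1*, the fibrillar collagen of cartilage, which is also made by early neuroepithelium, fell the most. It measured 21.5, 39.9 and 32 CPM in controls, 10.2, 10.8 and 10.8 CPM in *Fzd3* mutants, and 17.7, 32.1 and 31.7 CPM in *Celsr3* mutants. Every *Fzd3* mutant library lay below every other library, and the control and *Celsr3* mutant values overlapped. The log2 fold change was -1.47 (SE 0.23, adjusted p = 0.00101). *Col2a1* lies at chr15:97975602-98004695 on the minus strand of GRCm38. Of 16 markers of cartilage, bone, skin and muscle, 4 were in the table, and *Acan*, *Matn1*, *Comp* and *Runx2* were not; 3 of the 4 were lower in *Fzd3* mutants and 0 higher, beside 14.8% and 15% of all genes. The bone gene *Ibsp* fell from 1.71, 1.56 and 2.28 CPM to 0.929, 0.281 and 0.21 CPM (log2 fold change -1.33, SE 0.26, adjusted p = 0.00295). *Alpl*, a phosphatase of bone and other tissues, fell from 2.54, 2.38 and 1.98 CPM to 1.09, 1.79 and 1.41 CPM (-0.55, SE 0.18, adjusted p = 0.0375). *Sox9*, which activates *Col2a1* in cartilage and also marks radial glia, was 33.9, 39.9 and 27.5 CPM in controls and 23.4, 25.2 and 23.1 CPM in *Fzd3* mutants, a log2 fold change of -0.47 (SE 0.12, adjusted p = 0.0105). The part of such cells in the fall of *Col2a1* was not tested.

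*Col22a1*, a collagen known from tissue junctions, was the other gene that fell. It was at 12.3, 16.1 and 14.9 CPM in controls, 6.76, 6.91 and 7.69 CPM in *Fzd3* mutants and 10.8, 13.2 and 13.6 CPM in *Celsr3* mutants. Again the *Fzd3* mutants did not overlap with either group, and the log2 fold change was -0.96 (SE 0.12, adjusted p = 0.00021). Radial glia markers moved in the same direction: 9 of 12 were lower and 0 higher in *Fzd3* mutants. Their summed level was 1479, 1538 and 1496 CPM in controls, 1137, 1202 and 1088 CPM in *Fzd3* mutants and 1348, 1386 and 1469 CPM in *Celsr3* mutants. *Fabp7* was the most abundant, and *Vim* had the smallest p (log2 fold change -0.62, SE 0.06, adjusted p = 8.1e-05). Their part in the fall of both collagens was not tested. Markers of neurons (5 of 10 lower, 2 higher), of interneurons and striatum (2 of 12 lower, 1 higher) and of microglia and blood (1 of 13 lower, 2 higher) went both ways, where 14.8% and 15% of all genes passed.

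Among basement membrane genes, *Col15a1* and *Lama2* rose. Type XV collagen is a component of the basement membranes of vessels and muscle, and *Col15a1* was at 6.76, 4.91 and 5.47 CPM in controls, 13.1, 15.9 and 16.9 CPM in *Fzd3* mutants and 8, 6.64 and 10.1 CPM in *Celsr3* mutants. No library of another genotype reached the *Fzd3* mutants, and the log2 fold change was 1.35 (SE 0.16, adjusted p = 0.000163). The laminin alpha 2 gene *Lama2*, mutated in a congenital muscular dystrophy, was at 8.52, 7.13 and 9.38 CPM in controls, 12, 12.1 and 12.7 CPM in *Fzd3* mutants and 10.4, 9.47 and 13.5 CPM in *Celsr3* mutants. Its *Fzd3* mutants lay above all controls, while library 4 of the *Celsr3* mutants was higher still (log2 fold change 0.53, SE 0.13, adjusted p = 0.0107). An antisense transcript shares 3.86% of the exon bases of *Lama2*, and the use of strand in counting is not given in the sources used here.

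The abundant chains of the same membranes gave values close to control. *Col4a1* was at 100, 112 and 101 CPM in controls and 119, 105 and 101 CPM in *Fzd3* mutants, with a log2 fold change of 0.05 (SE 0.16, adjusted p = 0.849). *Col4a2* was at 62.9, 65.7 and 65.8 CPM in controls and 79.8, 70.6 and 68.1 CPM in *Fzd3* mutants (0.16, SE 0.13, adjusted p = 0.359). *Lamc1* was at 54.9, 61.2 and 57 CPM against 62.9, 59.1 and 63.7 CPM (0.10, SE 0.07, adjusted p = 0.29), and at 62.8, 61.2 and 72.4 CPM in *Celsr3* mutants. Ranges overlapped for *Col4a1* and *Lamc1*, and the *Col4a2* values of *Fzd3* mutants lay just above those of controls. Over the 18 basement membrane genes the median log2 fold change was -0.02, with 0 lower, 2 higher and 16 not passed. Among endothelial markers 8 of 22 were higher and 0 lower, beside 15% and 14.8% of all genes, with a median of 0.31; no test compared the lists. The most abundant, the glucose transporter *Slc2a1*, did not pass. *Flt1*, a receptor for vascular endothelial growth factor, went from 14.6, 13.7 and 14.8 CPM to 30.4, 24.2 and 24.5 CPM. Whether vessel cells take part in the rise of *Col15a1* and *Lama2* was not tested.

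In the fibroblast group 3 of 16 genes passed, all upwards and each less than 2 times, beside 15% of all genes higher and 14.8% lower. Fibrillin 2 (*Fbn2*), a microfibril protein of fetal tissues, was at 46.4, 52 and 50.1 CPM in controls, 67, 58.5 and 73.8 CPM in *Fzd3* mutants and 51.1, 60.3 and 54.6 CPM in *Celsr3* mutants (log2 fold change 0.42, SE 0.09, adjusted p = 0.00449). *Col5a1*, a chain of the collagen that starts type I fibrils, was at 7.24, 6.24 and 7.88 CPM in controls, 11.1, 13.2 and 11.6 CPM in *Fzd3* mutants and 5.73, 10.8 and 13.8 CPM in *Celsr3* mutants (0.71, SE 0.24, adjusted p = 0.0419). *Fbn1*, the fibrillin affected in Marfan syndrome, was at 21.3, 24.6 and 20.2 CPM in controls, 31.1, 24.8 and 26.5 CPM in *Fzd3* mutants and 23, 25.5 and 27.3 CPM in *Celsr3* mutants (0.31, SE 0.10, adjusted p = 0.0376). In all 3 genes the *Fzd3* mutants lay above the controls, by a narrow margin for *Fbn1*, and *Celsr3* mutants reached into both other groups. The call of *Col5a1* was lost without any 1 control or *Fzd3* mutant library and without *Celsr3* mutant library 2 (adjusted p from 0.0511 to 0.125), and in a fit without variance trend (adjusted p = 0.0793). *Fbn1* lost its call without control library 1 or 3, *Fzd3* mutant library 1 or 3 or *Celsr3* mutant library 2 (adjusted p from 0.0517 to 0.15), and in the fit without variance trend (adjusted p = 0.0642). Of its exon bases 20.1% are shared with an opposite gene model, *Gm9913*.

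Of the other collagens, *Col9a3* and *Col23a1* rose. *Col9a3*, a chain of the cartilage collagen type IX, was at 13.9, 14.9 and 15.6 CPM in controls, 23.5, 26.4 and 22.6 CPM in *Fzd3* mutants and 18, 21.5 and 20.5 CPM in *Celsr3* mutants. The 3 genotypes did not overlap in this gene (log2 fold change 0.69, SE 0.09, adjusted p = 0.000245). Its partner chains were near the lower end of the table, *Col9a1* at 1.13 and *Col9a2* at 1.05 CPM in controls. The opposite gene *Tcfl5* shares 6.07% of the exon bases of *Col9a3*. *Col23a1*, a transmembrane collagen, was at 3.45, 3.35 and 3.03 CPM in controls, 5.85, 5.85 and 5.56 CPM in *Fzd3* mutants and 5.01, 3.01 and 6.41 CPM in *Celsr3* mutants (0.73, SE 0.20, adjusted p = 0.0177). The *Celsr3* mutants spread across both other groups, and the call was lost without *Fzd3* mutant library 1 (adjusted p = 0.0559) or 2 (adjusted p = 0.0535). *Col11a1*, the most abundant of these 15 genes and a minor fibrillar chain, was at 42.6, 49 and 42 CPM in controls and 39, 41.2 and 41.4 CPM in *Fzd3* mutants, just below, and did not pass (-0.13, SE 0.09, adjusted p = 0.304). In *Celsr3* mutants it was at 42.4, 55.2 and 50.8 CPM.

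**Figure D3:**
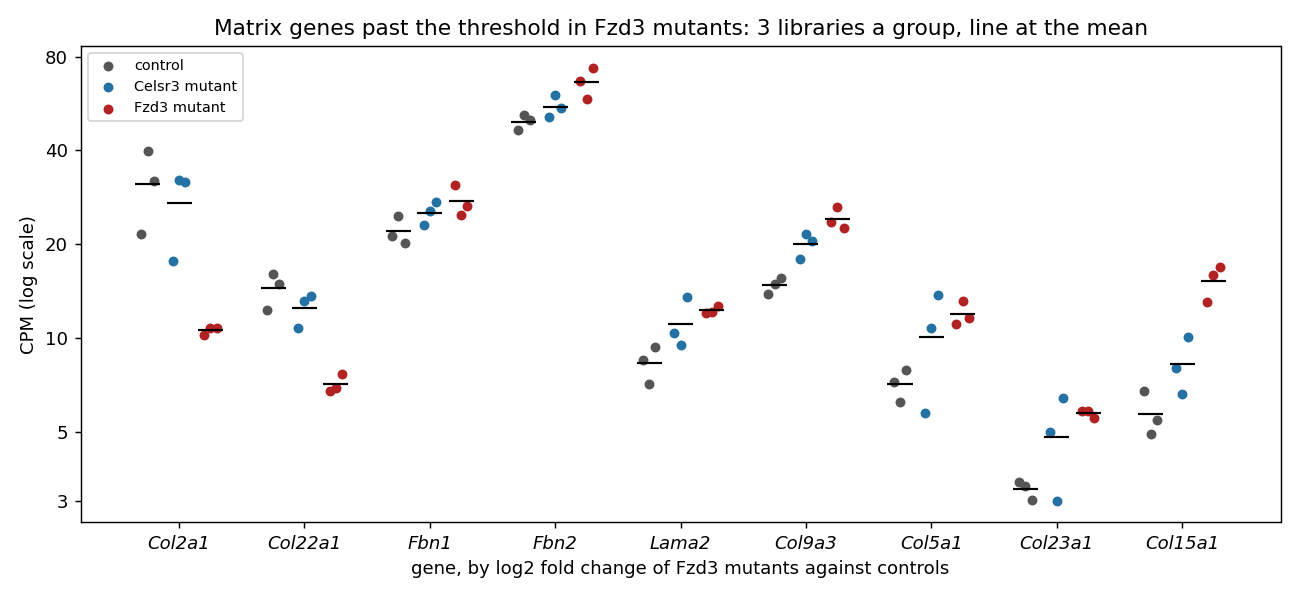
The 9 matrix genes past the threshold in *Fzd3* mutants, as CPM on a log axis, with 3 libraries per genotype and a line at each mean. The *Fzd3* mutant points lie below all controls in *Col2a1* and *Col22a1* and above all controls in the other 7 genes.

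The spread of *Celsr3* mutant library 4 entered this comparison too, since the fit shares 1 estimate of spread per gene over the 9 libraries. Without it, 4 matrix genes were lower and 10 higher in *Fzd3* mutants, while 14.2% and 14.9% of all genes were. The 9 calls of the full fit were all kept. Library 4 was singled out after its high values in matrix genes, *Dcn* and *Col1a1* among them, were seen. A smaller SE without it follows partly from that choice. *Dcn* was at 1.35, 0.854 and 1.1 CPM in controls and 2.81, 2.89 and 2.88 CPM in *Fzd3* mutants, groups that lay apart. Its log2 fold change of 1.08 had an SE of 0.52 and an adjusted p of 0.14 with all libraries, and an SE of 0.15 and an adjusted p of 0.000669 without library 4. *Col1a1* was at 1.21, 5.35 and 0.778 CPM in controls and 8.45, 8.12 and 4.85 CPM in *Fzd3* mutants, with overlap at control library 2 (1.67, adjusted p = 0.12 with library 4 and 0.0339 without). *Sparc* was at 68.8, 70.5 and 73.2 CPM in controls and 84.1, 89.8 and 84.2 CPM in *Fzd3* mutants (0.28, adjusted p = 0.0529 and 0.0129), and at 83.2, 68.2 and 97.2 CPM in *Celsr3* mutants. *Sparc* lay near the threshold and also passed without *Celsr3* mutant library 2 (adjusted p = 0.00834), with each library rescaled to the same total (adjusted p = 0.0466) and with library weights (adjusted p = 0.0495). All 3 genes passed in a fit of the 6 libraries compared (adjusted p from 0.00132 to 0.0298).

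The genes added on the lower side were biglycan and a type V chain. *Bgn*, a small proteoglycan related to decorin, was at 13.9, 14.9 and 14.8 CPM in controls and 11, 11.2 and 9.98 CPM in *Fzd3* mutants (log2 fold change -0.42, adjusted p = 0.119 with library 4 and 0.00344 without). *Col5a2*, which pairs with *Col5a1* in type V collagen, was at 18.4, 15.5 and 14.7 CPM in controls and 11.5, 12.7 and 9.53 CPM in *Fzd3* mutants (-0.51, adjusted p = 0.054 and 0.00761). *Col5a2* also passed without *Celsr3* mutant library 1 (adjusted p = 0.0465) and with library weights (adjusted p = 0.0463), and both genes passed in the fit of 6 libraries (adjusted p = 0.00566 for *Bgn* and 0.013 for *Col5a2*). Both genes lay below all controls. In the full fit 3 of the 16 fibroblast genes were higher and 0 lower. *Col3a1* (-0.40, adjusted p = 0.741) and *Col1a2* (-0.01, adjusted p = 0.994) did not pass in the full fit. Of the markers of meningeal fibroblasts 3 of 10 were higher and 1 lower in *Fzd3* mutants, beside 15% and 14.8% of all genes. *Pdgfra*, 1 of the 3, was at 15.2, 11.8 and 19 CPM in controls and 32.5, 29.3 and 17.1 CPM in *Fzd3* mutants. These groups overlapped (0.73, SE 0.24, adjusted p = 0.0399). *Ogn*, a proteoglycan of the decorin family, rose from 0.636, 0.378 and 0.527 CPM to 2.11, 2.57 and 2.14 CPM (1.46, SE 0.33, adjusted p = 0.00731), whereas *Serping1*, a complement inhibitor, fell from 7.9, 7.36 and 8.48 CPM to 5.16, 3.87 and 5.98 CPM (-0.63, SE 0.14, adjusted p = 0.00666). *Tbx18* and *Foxc1* did not pass, and the part of such cells in these values was not tested.

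**Figure D4:**
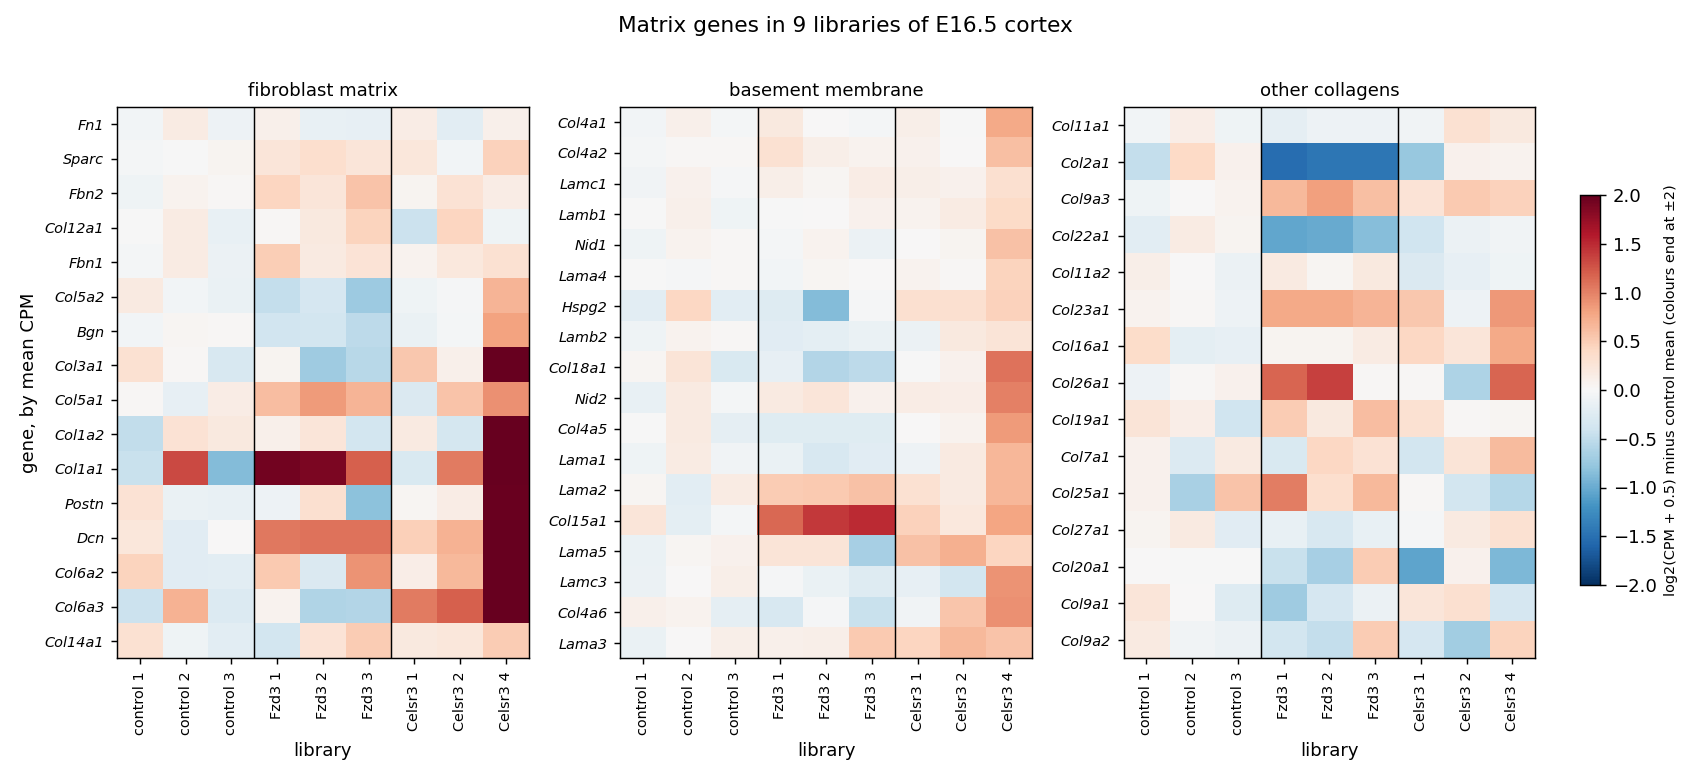
Log2(CPM + 0.5) of each matrix gene minus its control mean, in colours that end at 2 in either direction, with genes ordered by mean CPM within fibroblast matrix, basement membrane and other collagens. The *Fzd3* mutant columns are blue for *Col2a1* (log2 fold change -1.47) and red for *Col15a1* (1.35) and *Dcn* (1.08), and the column of *Celsr3* mutant library 4 is red for most genes of the first panels.

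*Celsr3* mutants were compared with the same controls, so the values of the mutants share 1 reference. No matrix gene passed in limma, neither lower nor higher, where 0.177% of all genes were lower and 0.130% higher. At an unadjusted p below 0.05 there were 12 of the 49, against 800 of the 14670. With library weights estimated by limma, 1 gene passed, *Col9a3*, and it was higher. The median log2 fold change was 0.21 over the matrix genes, 0.36 over fibroblast genes, 0.30 over basement membrane genes and 0.13 over the other collagens, against 0.00 over all genes. Without library 4 these medians became 0.09, 0.14, 0.08 and -0.06, again 0 genes passed (0.157% of all genes were lower and 0.109% higher), and 5 had an unadjusted p below 0.05, against 715 of the 14669 genes tested. Over the fibroblast genes other than the abundant *Sparc* and *Fn1*, the median was 0.56 with library 4 and 0.15 without it.

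Several of the larger fibroblast differences were smaller without that library. *Col3a1* had a log2 fold change of 1.59 (SE 0.79, adjusted p = 0.947) with it and 0.32 without it. *Col1a2* went from 1.22 to -0.08 and *Bgn* from 0.21 to -0.08, both changing sign. *Col1a1* went from 1.32 to 0.37 and *Postn* from 0.72 to 0.09. *Dcn* went from 1.42 to 0.59 (SE 0.17, adjusted p = 0.588), and all its *Celsr3* mutant libraries lay above the controls. *Fbn2* (0.16 and 0.17) and *Fbn1* (0.19 and 0.14) hardly differed. *Col6a3*, a chain of the beaded filaments of type VI collagen, kept more of its difference: it was at 0.771, 2.27 and 0.903 CPM in controls and 2.99, 3.41 and 8.43 CPM in *Celsr3* mutants, with no overlap, and its log2 fold change was 1.54 (adjusted p = 0.284) with and 1.12 (adjusted p = 0.589) without library 4. *Col9a3*, described above, had 0.42 and 0.40 (adjusted p = 0.114 and 0.358). Of the basement membrane chains, *Col4a1* read 113, 104 and 177 CPM and *Col4a2* 68.7, 64.9 and 98.6 CPM in *Celsr3* mutants, so the pair had 0.29 and 0.23 with the library and 0.05 and 0.04 without it.

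*Fzd3* and *Celsr3* mutants were then compared directly in the same fit. With all libraries, 13 matrix genes were lower and 5 higher in *Fzd3* mutants, beside 14.3% and 15.3% of all genes. Without *Celsr3* mutant library 4 the counts were 5 lower and 3 higher, beside 9.93% and 11.5% of all genes. The 5 lower genes were all among the former 13, and 2 of the 3 higher genes were among the former 5. The median log2 fold change of the matrix genes was -0.24 with and -0.02 without that library. Without variance trend the lower count was 6, with 26.3% of all genes called in both directions together against 29.6% in the full fit. Leaving out other single libraries also moved the counts: the lower count was 7, 6 and 6 without *Fzd3* mutant library 1, 2 or 3 (20.3%, 21.6% and 29.1% of all genes called), and the higher count was 1 without *Fzd3* mutant library 1, 3 without *Fzd3* mutant library 3 and 2 without *Celsr3* mutant library 1 (26.4% of all genes called).

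In this comparison 7 genes passed with and without library 4, in all 3 types of matrix. *Col2a1* (-1.27 with, -1.14 without), *Col22a1* (-0.77 and -0.70) and *Col15a1* (0.86 and 1.01) repeat the separation of *Fzd3* mutants from both other genotypes given above. *Col6a3* was at 1.28, 0.626 and 0.63 CPM in *Fzd3* mutants, below all *Celsr3* mutants (-1.92 with, adjusted p = 0.00356, and -1.49 without, adjusted p = 0.0106). *Bgn* read 13.2, 14.2 and 25.7 CPM and *Col5a2* 15.2, 15.8 and 26.1 CPM in *Celsr3* mutants, above their *Fzd3* mutant values in every library. Their log2 fold changes were -0.63 and -0.70 with library 4 and -0.34 and -0.46 without it. *Col11a2*, a chain of cartilage type XI collagen, was at 10.5, 9.71 and 8.83 CPM in controls, 11, 9.89 and 11.1 CPM in *Fzd3* mutants and 7.78, 8.56 and 9.03 CPM in *Celsr3* mutants (0.32 and 0.37, adjusted p = 0.0263 and 0.0339). Its call was lost without *Fzd3* mutant library 1 or 3 or *Celsr3* mutant library 1 or 2 (adjusted p from 0.0608 to 0.0845), and that of *Bgn* without any 1 *Fzd3* mutant library (from 0.0604 to 0.07).

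The calls of 7 basement membrane genes were lost without library 4. *Col18a1*, the source of endostatin, was at 14.6, 17.2 and 11.5 CPM in controls, 12.6, 9.31 and 9.81 CPM in *Fzd3* mutants and 14.2, 15.1 and 30.7 CPM in *Celsr3* mutants, and its log2 fold change went from -0.81 to -0.46 (adjusted p = 0.0314 and 0.0694). Each call lost without library 4 was also lost without at least 1 other library. The X-linked neighbours *Col4a5* and *Col4a6*, which are transcribed in opposite directions from starts 1309 bases apart, went together. *Col4a5* was at 12.5, 14.3 and 11.1 CPM in controls, 10.5, 10.6 and 10.6 CPM in *Fzd3* mutants and 12.7, 13.2 and 23 CPM in *Celsr3* mutants, and *Col4a6* at 3.4, 3.2 and 2.7, then 2.3, 3 and 2.1, then 2.9, 4.8 and 6.2 CPM. Their log2 fold changes were -0.55 and -0.73 with library 4 and -0.28 and -0.51 without it.

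The laminin and perlecan genes of that group differed in how far library 4 moved them. *Lama1*, a chain of the pial basement membrane, was at 11.4, 13.7 and 11.5 CPM in controls, 11, 9.63 and 10.3 CPM in *Fzd3* mutants and 11.3, 13.8 and 19.5 CPM in *Celsr3* mutants (-0.47 with and -0.26 without library 4). *Lamb2* was at 18.4, 20.7 and 19.9 CPM, then 16.8, 17.1 and 17.9 CPM, then 18.1, 22.5 and 23.7 CPM (-0.29 and -0.22). *Lama5*, an alpha chain of vessel and epithelial membranes, was at 5.39, 6.14 and 6.3 CPM, then 7.18, 7.21 and 3.55 CPM, then 9.13, 10 and 8.16 CPM (-0.62 and -0.70). Here *Fzd3* mutant library 3 was the low one, and without it the log2 fold change was -0.32. *Hspg2*, which encodes perlecan, was at 17.7, 27.6 and 17.7 CPM, then 17.1, 11 and 20.3 CPM, then 25.7, 25.9 and 28.4 CPM (-0.75 and -0.70), and *Celsr3* mutants lay above all *Fzd3* mutants. The remaining calls lost were *Col11a1* (-0.27 and -0.25), *Fbn2* (0.26 and 0.25), *Col9a3* (0.27 and 0.29) and *Col25a1* (0.97 and 0.84), a transmembrane collagen of neurons that was at 1.66, 0.805 and 2.53 CPM in controls, 3.65, 2.09 and 2.69 CPM in *Fzd3* mutants and 1.57, 1.09 and 0.883 CPM in *Celsr3* mutants. *Col26a1*, a collagen first found in testis and ovary, did not pass with library 4 and passed without it (0.66 and 1.15, adjusted p = 0.256 and 0.0361). It was at 2.23, 2.48 and 2.63 CPM in controls, 6.06, 7.06 and 2.5 CPM in *Fzd3* mutants and 2.49, 1.42 and 6.07 CPM in *Celsr3* mutants.

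**Figure D5:**
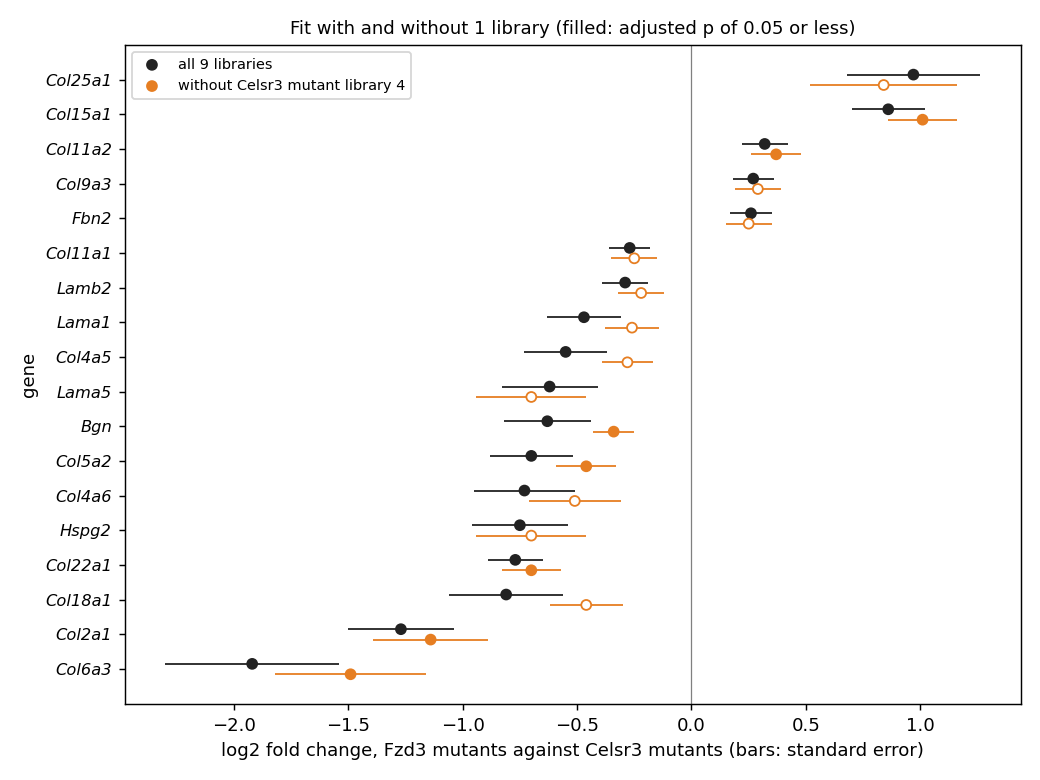
Log2 fold change of *Fzd3* against *Celsr3* mutants for the 18 matrix genes past the threshold with all 9 libraries, with and without *Celsr3* mutant library 4; bars are SE and filled points have an adjusted p of 0.05 or less. In *Col18a1*, *Col4a5* and *Lama1* the estimate moves towards 0 (from -0.81 to -0.46 in *Col18a1*), and in *Col2a1*, *Col22a1* and *Col15a1* it hardly moves.

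With all libraries, 29.8% of all genes passed in *Fzd3* mutants against controls, 0.307% in *Celsr3* mutants against controls and 29.6% between the mutants. The share of all genes that passed in none of these 3 comparisons was not counted. Of the 49 matrix genes, 27 passed in none, a count that cannot be called high or low without that share. Among them were the fibroblast genes *Col12a1* and *Col14a1*, the nidogens *Nid1* and *Nid2*, which link laminin to type IV collagen, and the laminin chains *Lama3*, *Lama4*, *Lamb1* and *Lamc3*. *Nid1* and *Nid2* had log2 fold changes of -0.03 and 0.16 in *Fzd3* mutants. The nidogens and *Lamc3* were highest in *Celsr3* mutant library 4, where *Nid1* was at 40.8, *Nid2* at 25.4 and *Lamc3* at 7.77 CPM. *Lama3*, like *Lama5*, was not highest in library 4, with 1.49, 1.81 and 1.69 CPM in *Celsr3* mutants against 0.848, 0.985 and 1.1 CPM in controls (0.55, SE 0.16, adjusted p = 0.525).

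The separate list held 33 other matrix genes, 27 of them in the table. It mixed proteoglycans, tenascins and a hyaluronan synthase of neural tissue with genes of basement membranes (*Agrn*, *Ntn4*, *Fras1*, *Frem1* and *Frem2*), so its counts are not of neural matrix alone. In *Fzd3* mutants 3 were lower, 10 higher and 14 did not pass, with a median log2 fold change of 0.24 against 0.00 over all genes, of which 14.8% were lower and 15% higher. *Tnr*, a tenascin of perineuronal matrix, went from 24.4, 21.5 and 20 CPM to 36.7, 31.2 and 34.3 CPM (0.62, SE 0.10, adjusted p = 0.00115). The proteoglycan *Spock2* went from 98.3, 104 and 121 CPM to 169, 163 and 138 CPM (0.54, SE 0.09, adjusted p = 0.0011). *Agrn*, a heparan sulphate proteoglycan of synapses and basement membranes, went from 430, 445 and 470 CPM to 554, 508 and 528 CPM (0.24, SE 0.05, adjusted p = 0.00408), and *Thbs3*, a thrombospondin, from 50.6, 51.1 and 64.4 CPM to 70.1, 81.7 and 74.6 CPM (0.45, SE 0.09, adjusted p = 0.00488). In these genes the *Fzd3* mutants lay above all controls. *Ptprz1*, the most abundant gene of the list and a receptor phosphatase of radial glia, did not pass (-0.04, adjusted p = 0.655). No gene of the list passed in *Celsr3* mutants, where 0.177% of all genes were lower and 0.130% higher. The summed level of the list in *Celsr3* mutant library 4 was 2833 CPM, the lowest of the 9, against 3028 to 3482 CPM in the others.

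Enzymes that fold, cross-link and trim collagen had 25 genes in the table, of which 1 was lower and 4 were higher in *Fzd3* mutants, with a median of 0.00, beside 14.8% and 15% of all genes. *Adamts3*, a procollagen N-proteinase, fell from 111, 115 and 100 CPM to 81.4, 76.7 and 80.5 CPM (-0.44, SE 0.06, adjusted p = 0.000567). Its relative *Adamts2* rose from 5.3, 4.4 and 4.62 CPM to 6.22, 6.72 and 8.44 CPM (0.53, SE 0.13, adjusted p = 0.011). *Leprel2* rose by 0.30 (SE 0.08, adjusted p = 0.0168). Prolyl hydroxylases of the *P4ha* type stabilise the collagen helix, and *P4ha3* rose from 4.3, 4.45 and 4.74 CPM to 7.92, 9.16 and 6.3 CPM (0.72, SE 0.15, adjusted p = 0.00461). *P4hb*, the abundant shared subunit, did not pass (-0.05, adjusted p = 0.328). The collagen chaperone *Serpinh1*, named after its values were seen, was at 33.1, 34.9 and 52.7 CPM in *Celsr3* mutants, against 26.7 to 38.6 CPM in the other genotypes. Without *Celsr3* mutant library 4, 2 genes of the list were lower in *Fzd3* mutants, beside 14.2% of all genes. *Serpinh1* was then called (-0.29, adjusted p = 0.151 with that library and 0.0158 without).

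Proteases and their inhibitors gave 3 lower and 6 higher of 16 genes in *Fzd3* mutants, with a median of 0.14, beside 14.8% and 15% of all genes. *Htra1*, a secreted serine protease, rose from 4.1, 2.18 and 2.26 CPM to 7.36, 9.85 and 7.14 CPM (1.40, SE 0.22, adjusted p = 0.000989). *Mmp11* rose by 0.59 (SE 0.08, adjusted p = 0.000498) and the inhibitor *Timp2* by 0.51 (SE 0.08, adjusted p = 0.000983), whereas the membrane-bound collagenase *Mmp14* fell from 44.9, 46.5 and 47.3 CPM to 33.1, 38.5 and 34.8 CPM (-0.38, SE 0.06, adjusted p = 0.000921). *Mmp24*, the most abundant, rose by 0.26 (SE 0.07, adjusted p = 0.0116).

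Of 29 receptors for matrix, 5 were lower and 3 higher in *Fzd3* mutants, with a median of -0.09, beside 14.8% and 15% of all genes. *Gpr56*, the receptor through which type III collagen acts on radial glia and neurons at the pial surface, fell from 174, 197 and 188 CPM to 141, 133 and 143 CPM (-0.42, SE 0.05, adjusted p = 0.000309). The collagen receptor kinase *Ddr1* fell from 93.2, 114 and 95.8 CPM to 72.8, 79.2 and 68.9 CPM (-0.45, SE 0.08, adjusted p = 0.00173). The glypicans *Gpc6* (-0.64, SE 0.08, adjusted p = 0.000245) and *Gpc4* (-0.67, SE 0.12, adjusted p = 0.00181) also fell, and the syndecan *Sdc3*, the most abundant receptor, rose by 0.20 (SE 0.06, adjusted p = 0.0243). In *Celsr3* mutants no enzyme, protease, inhibitor or receptor of these lists passed, where 0.177% of all genes were lower and 0.130% higher. *Gpr56* was at 174, 189 and 190 CPM in these mutants, close to the controls.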

How the data were processed

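Cortex of E16.5 mouse embryos was sequenced in 9 libraries, 3 each of control, *Fzd3* -/- and *Celsr3* -/-. The authors deposited 1 table of CPM for 14670 genes, in which reads per gene were divided by a scaled library size; genes of little expression had been left out, and 0 columns were unused here. The submitters' processing notes name FastQC, TopHat, TopHat2, Bowtie, Cufflinks 2.1.1 and edgeR 2.12, with the builds GRCm38 and GRCh37. Strand use, counting and annotation are not given in the sources used here.

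Log2(CPM + 0.5) was fitted in R 4.3.3 with limma 3.58.1 (genotype as the term, variance trend on abundance, all 9 libraries, genes averaging 0.5 CPM or more), with two-sided tests and Benjamini-Hochberg adjustment over all genes, called at 0.05. The scripts were tested on simulated data. Tables and figures were made with matplotlib 3.10.9, pandas 2.3.3 and numpy 2.4.6 under Python 3.11.15. Gene models and exon lengths came from GENCODE M21 (union of exons, or the longest transcript), and promoters from RefSeq. Depth was estimated from the smallest step between values, 0.0142 to 0.0251 CPM; values were whole multiples of it within 0.01, but 26 to 70 per library lie within 20 steps of 0, too few to take the values as recovered reads.

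The members and the lists were chosen with earlier results of these data known. Values per library are given for the 3 most abundant genes of each type of matrix and for every gene past the threshold; from other lists, genes were named from the most abundant one and the 4 with the smallest p in *Fzd3* mutants, some by fold change only. Genes named for their values in library 4 of the *Celsr3* mutants were picked after those were seen. Alternatives were other pseudocounts, filters and scalings, a fit of 6 libraries, a fit without variance trend, a replicate block, each library left out, and library weights (limma arrayWeights), which were added after the data were seen.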

Additional observations from a re-analysis of the deposited data

How the results depend on the processing

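The counts of matrix genes held within 1.5 times under other pseudocounts, filters and scalings, and no scaling moved the median of all genes by more than 0.01. The filter at a mean of 5 CPM tested 31 matrix genes of 11585 genes. Shares of all genes are given in both directions together. In *Fzd3* mutants against controls (29.8% of all genes), the lower count of 2 became 4 with only the 6 libraries compared (27.2%), and ranged from 2 to 4 with 1 library left out. The higher count of 7 ranged from 4 to 10 (20.2% to 29.4%). In *Celsr3* mutants against controls, the higher count of 0 became 1 with library weights. In *Fzd3* against *Celsr3* mutants (29.6%), the lower count of 13 became 6 without variance trend (26.3%) and ranged from 5 to 13 with 1 library left out, and the higher count of 5 ranged from 1 to 5 (20.3% to 30.5%). Without *Celsr3* mutant library 4, *Col1a2* and *Bgn* turned to -0.08 each against controls. Other matrix genes also changed sign there, among them *Lamc3* (0.13 to -0.26), *Col26a1* (0.19 to -0.30), *Col5a2* (0.19 to -0.06) and *Col7a1* (0.17 to -0.06). With each library left out in turn, *Col1a2* ranged from -0.08 to 2.01 and *Bgn* from -0.08 to 0.38. Beyond what fewer libraries imply, the cause was not tested.

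With the replicate number as a block, the lower count was 5 in *Fzd3* mutants against controls (24.7% of all genes), *Fbn1* there did not pass (adjusted p = 0.0602), and in *Fzd3* against *Celsr3* mutants 4 genes were lower and 3 higher (14.3%). In *Celsr3* mutants against controls the block turned *Col1a2* to -0.12, *Postn* to -0.10 and *Bgn* to -0.10; number 4 occurs once, so that library is fitted exactly. Deviations of libraries with the same number correlated at -0.07, -0.15 and -0.20 (control and *Fzd3*), 0.07 and -0.01 (control and *Celsr3*), and 0.19 and -0.08 (*Fzd3* and *Celsr3*). Libraries with different numbers gave -0.16 to 0.19. No pairing by number was seen, and so few libraries cannot exclude it.

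Groups of 3 limit every comparison, and depth limits values near 0.0752 CPM, an estimated 3 reads in the shallowest library. The planned edgeR and DESeq2 tests were not run, because whole reads could not be established.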
